A study of Mus musculus with 15 samples.

Results

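The cytosolic ribosomal protein genes were followed in the mouse hippocampus during the extinction of contextual fear. Members were taken by name from the array annotation: every gene called Rps or Rpl with a number and an optional suffix, together with Rplp0, Rplp1, Rplp2 and Rpsa, each represented by its brightest probe over the 15 arrays. This gave 80 genes of the 26117 tested, namely 31 of the small subunit, 42 of the large subunit, 3 of the P-stalk and 4 paralogues (Rpl3l, Rpl7l1, Rpl22l1 and Rps27l). All 80 passed the filter on dim probes and were well above background on each of the 15 arrays.

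All mice were male C57BL/6J, an inbred laboratory strain, and their age is not stated in the labels. ELF mice (5 arrays) had been shocked in a box and then placed in it again every 24 h with no shock, and were sampled 1 h after trial 5, when freezing had become low. E1 mice (5 arrays) had been shocked likewise and sampled 1 h after trial 1, when freezing was high. Control mice (5 arrays) received no shock, and the design text has them exposed to the same context whereas their sample names call them naive. The labels do not say how often control mice visited the box or how long before sampling. ELF and E1 mice therefore share the shock and the return to the box, while the number of returns and the days since the shock differ together between them.

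Ribosomal proteins are made in near equal amounts and assembled with ribosomal RNA in the nucleolus into a small subunit, which decodes the messenger, and a large subunit, which joins amino acids. Their transcripts are among the most abundant of a neuron, and many begin with a 5′ terminal oligopyrimidine tract (TOP), a C followed by a run of C and T, through which the kinase mTORC1 and the repressor Larp1 set how much of the messenger is translated. Protein synthesis is needed for lasting memory in rodents, and phosphorylation of the protein Rps6 is widely read as a sign of neuronal activity. An array of transcripts measures neither translation nor phosphorylation.

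The transcript starts of 6 members on which the results below turn show the TOP tract and its absence. They are given from 10 bases before to 20 bases from the annotated start (RefSeq, GRCm38.p6), and capitals mark a pyrimidine run that begins with C within 5 bases of that start and holds at least 4 further C or T.
Rps6, chr4:86857348-86857377, minus strand: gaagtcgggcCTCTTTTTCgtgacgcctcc
Rps15a, chr7:118116128-118116157, minus strand: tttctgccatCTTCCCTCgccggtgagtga
Rpl13a, chr7:45128726-45128755, minus strand: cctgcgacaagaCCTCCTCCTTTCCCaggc
Rplp0, chr5:115559457-115559486, plus strand: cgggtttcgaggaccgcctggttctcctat
Rpsa, chr9:120127756-120127785, plus strand: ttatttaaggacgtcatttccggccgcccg
Rpl7l1, chr17:46782637-46782666, minus strand: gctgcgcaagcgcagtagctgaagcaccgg

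In Rps6 and Rps15a the run is marked from the annotated first base, and the base before it was also a pyrimidine, C in Rps6 and T in Rps15a. Of the 80 members, 60 had a start in the RefSeq table, and 13 of these (21.7%) had C at the first base followed by 4 C or T, against 3.01% of 27025 genes in the table. With the run allowed to begin within 5 bases of the start, 28 members (46.7%) held it, against 21.2% of all genes. None of 69 mitochondrial ribosomal protein genes opened with C and 4 pyrimidines at the first base, and 24.6% of them held the looser match. These matches describe letters at an annotated start, which may lie some bases from the start used in the hippocampus, and lack of a match shows nothing about how a messenger is controlled.

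Ribosomal protein genes have many processed copies in mammalian genomes, so the probe that stands for a member bears on its value. The chosen probes are 60 bases long. Of 79 chosen probes with coordinates in the array design (build mm7), 30 spanned more than 100 bases of the genome (140 at the least) and so crossed an intron. A processed copy lacks the intron just as the spliced transcript does. Such a probe could therefore match both, and this was not tested. For 25 members the design listed at least 1 further RefSeq accession for the same probe, at most 3, so signal could be shared. The probe for Rplp0, the protein that anchors the stalk, lies on chromosome 8 in the design, while the gene lies on chromosome 5 in RefSeq, and the value printed for Rplp0 is the value of that probe. The probes of Rps6 and Rps15a crossed an intron, and those of Rpl36 and Rplp0 did not.
Rps6 probe, chr4:86259708-86259899, minus strand: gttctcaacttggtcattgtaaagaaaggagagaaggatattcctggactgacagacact
Rps15a probe, chr7:114037415-114037718, minus strand: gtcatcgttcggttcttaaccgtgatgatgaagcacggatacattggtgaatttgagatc
Rpl36 probe, chr17:54823633-54823692, plus strand: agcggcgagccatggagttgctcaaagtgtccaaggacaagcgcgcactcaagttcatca
Rplp0 probe, chr8:101459316-101459375, minus strand: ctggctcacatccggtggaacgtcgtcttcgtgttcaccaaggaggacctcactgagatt

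Values below are log2 intensities relative to the 75th percentile of the same array, called scaled log2 signal, with mean ± SD over 5 arrays. Differences are those of limma with its standard error (SE). Adjusted p-values are from limma with Benjamini-Hochberg adjustment over all 26117 genes, and a gene was called changed at an adjusted p under 0.05. The 75th percentile intensity lay between 1441 and 2932 units, and 83.5% to 97.2% of an array's spots were well above background. The 15 arrays lay on 4 slides: slide 1 held 4 control arrays, slide 2 held 3 E1 arrays and 1 control array, slide 3 held 2 ELF and 2 E1 arrays, and slide 4 held 3 ELF arrays. ELF and control arrays thus share no slide. As a check of the groups, 7 of 9 activity-regulated genes were called higher in E1 than in control, among them Fos with a difference of 1.47. In ELF 1 of 9 (Dusp1, 0.45) was called higher than in control. The shares of all genes called higher were 0.134% and 1.49%. With slide as a fixed block, where E1 and control meet through 1 control array, these calls were lost. All 9 stayed above 0 in E1 versus control there, with a median difference of 0.72. With replicate number as a block the count in E1 was 2 of 9 over all 15 arrays and 8 of 9 over the E1 and control arrays alone. All 6 markers of hippocampal neurons were well above background on every array.

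No ribosomal protein gene was called changed in any of the 3 comparisons. In E1 versus control 0 of 80 members were called, against 0.188% of all genes, and 4 of 80 had an unadjusted p under 0.05, against 13.1% of all genes. In ELF versus control 0 of 80 were called, against 2.15% of all genes. At an unadjusted p under 0.05 there were 18 of 80 (11 higher and 7 lower), against 23% of all genes. In ELF versus E1 0 of 80 were called, against 0.00766% of all genes. At an unadjusted p under 0.05 there were 19 of 80 (1 higher and 18 lower), against 9.64% of all genes. The lowest adjusted p among the 80 members was 0.266, 0.113 and 0.405 in these comparisons in this order. Quantile normalization also gave 0 calls among the members in each comparison, against 1.74%, 6.51% and 0.0191% of all genes. Deviations of same-numbered E1 and control arrays correlated weakly, and not always more than those of arrays with other numbers. With replicate number as a block over all 15 arrays, the members again gave 0 calls in E1 versus control, against 0.0345% of all genes. Over the E1 and control arrays alone they gave 0 calls as well, against 12.3% of all genes. In that fit of 2 groups the lowest adjusted p of a member was 0.0545, and 6 of 80 had an unadjusted p under 0.05, against 31.2% of all genes.

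What the members can show was set by the scanner. Of the 80 chosen probes, 34 were saturated on no array, 24 on 1 to 14 arrays and 22 on all 15. The never saturated probes comprised 10 of 31 small subunit genes, 20 of 42 large subunit genes, Rplp0 and 3 of 4 paralogues. Saturated members per array numbered 40 to 45 in ELF, 22 to 41 in E1 and 29 to 37 in control. The ELF range overlapped that of E1 and lay above that of control.

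Members saturated on all 15 arrays included Rplp1 and Rplp2, the acidic proteins of the stalk that recruits elongation factors, Rps27a, which is made as a fusion with ubiquitin, and Rpl5, which with Rpl11 binds the 5S RNA and the p53 regulator Mdm2. They also included Rps27, Rps14, Rps20, Rpl23a, Rpl37a, Rpl38 and Rpl41. For none of these 22 is a difference read as a change in level, and the summaries over them are descriptions. Their unscaled log2 signal differed by a median of −0.01 in E1 versus control, −0.03 in ELF versus control and −0.03 in ELF versus E1, whereas the log2 of the 75th percentile differed by −0.07, 0.25 and 0.32. Over the 15 arrays the median scaled signal of these members followed the log2 of the 75th percentile with a Pearson's r of −0.996 (Spearman's rho −0.986), and the median of the never saturated members with an r of −0.20 (rho −0.19). Both are descriptions over arrays that share the scaling factor on either axis.

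**Figure D1:**
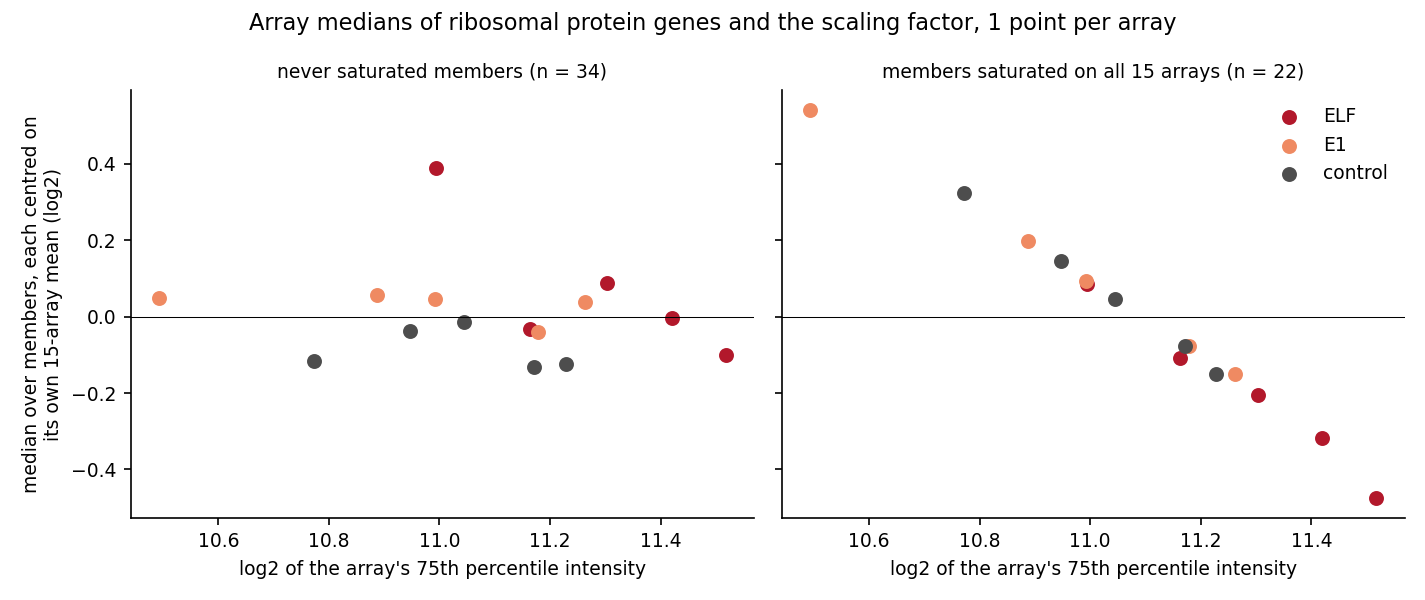
Each point is 1 of the 15 arrays; the horizontal axis is the log2 of the array's 75th percentile intensity and the vertical axis the median over members of the scaled log2 signal, each member centred on its own mean over 15 arrays. The 22 members saturated on all arrays lie on a falling line (r −0.996), while the 34 never saturated members do not, and array ELF 2 stands above the others there at 0.39.

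In both comparisons with ELF the sign of a difference went with saturation. In ELF versus control the median difference was 0.17 over the 34 never saturated members (30 of 34 above 0), −0.16 over the 24 saturated on some arrays (4 of 24 above 0) and −0.27 over the 22 saturated on all arrays (0 of 22 above 0), beside 0.10 over all genes. In ELF versus E1 the medians in the same order were 0.03, −0.22 and −0.34, beside 0.05 over all genes. In E1 versus control, where the 75th percentile differed least, they were 0.11, 0.09 and 0.06, beside 0.04 over all genes. Most members of each class were above 0 there (30 of 34, 19 of 24 and 21 of 22). Pooled over all 80 members the medians were 0.09 in E1 versus control, −0.06 in ELF versus control and −0.16 in ELF versus E1. Under quantile normalization the pooled medians were 0.04, 0.01 and −0.04. At an unadjusted p under 0.05, the never saturated members numbered 10 of 34 in ELF versus control (all higher), beside 23% of all genes. In ELF versus E1 they numbered 1 of 34 (higher), beside 9.64%, and the 18 lower members there had all been saturated on some or all arrays.

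**Figure D2:**
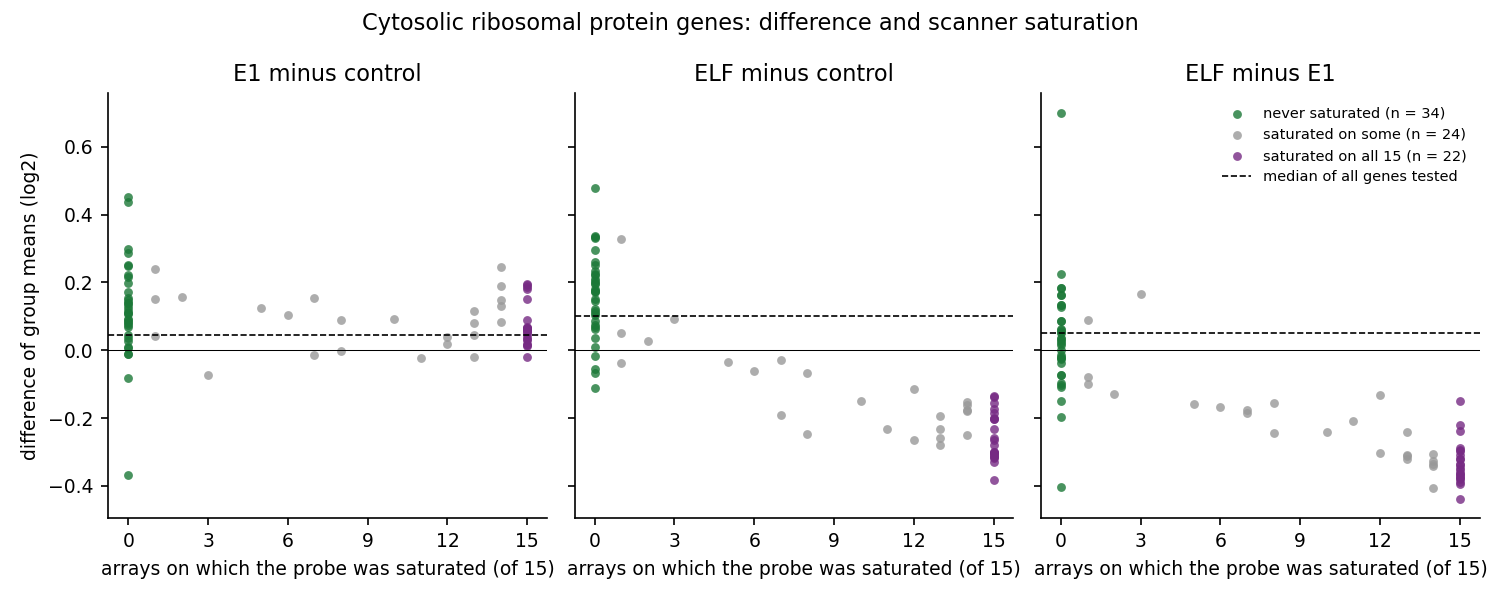
Each point is a member; the horizontal axis counts the arrays (of 15) on which its probe was saturated and the vertical axis gives the difference of group means in log2 units, with the median of all genes as a dashed line. In both panels that involve ELF the points fall as the number of saturated arrays grows, and all 22 members saturated on 15 arrays lie below 0.

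Members saturated on every array of 1 group but not of the other numbered 6 in E1 versus control, 11 in ELF versus control and 17 in ELF versus E1. They included Rpl3, which helps form the peptidyl transferase centre, Rpl11 and Rps3, which lines the messenger entry channel. In none of these cases was the saturated group the brighter on the scaled values, so no lower bound on a fold could be given. Median scaling called 2 members lower in ELF than in control (Rps13 and Rpl7a), beside 1.86% of all genes lower, and limma on the values of the authors' deposited table called 4 (Rps13, Rps3, Rpl7a and Rps2), beside 3.09%. Each of these 4 probes was saturated on all 5 ELF arrays. Members measured below saturation on at least 1 array of each group numbered 52 in E1 versus control and 41 in each comparison with ELF. Some of these were saturated on part of the arrays, which limits their group means, and only 34 members were never saturated.

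Among the 34 never saturated members, small positive differences prevailed in both comparisons with control, where the median of all genes was also above 0. In E1 versus control 30 of 34 were above 0 with differences from −0.37 to 0.45. In ELF versus control 30 of 34 were above 0 with differences from −0.11 to 0.48. In ELF versus E1 20 of 34 were above 0. The 95% confidence interval of a never saturated member's difference reached a median of 0.25 to either side, so a shift of the size of these medians was not detectable for a typical member. In bulk tissue a change in the number of cells of a type and a change in RNA per cell cannot be told apart.

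Single arrays stood apart. Array ELF 2 held the highest of the 15 values in 28 of the 34 never saturated members, and the lowest fell on ELF 4 in 8 and on a control array in 21. The median of the never saturated members, each centred on its own mean, lay between −0.10 and 0.39 in ELF, between −0.04 and 0.06 in E1 and between −0.13 and −0.01 in control. ELF overlapped both other groups. Without ELF 2 the median difference was 0.09 in ELF versus control, against 0.17 with it, and −0.07 in ELF versus E1, against 0.03 with it.

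Slide moved with these differences. The control array on slide 2 exceeded all 4 control arrays of slide 1 in 16 of the 34 never saturated members and lay below all 4 in 6. On slide 2 alone, 3 E1 arrays against that 1 control array, the median difference of the never saturated members was 0.05 (21 of 34 above 0), beside −0.04 over all genes. On slide 3 alone, 2 ELF arrays against 2 E1 arrays, it was −0.13 (9 of 34 above 0), beside −0.18 over all genes. Within the ELF group the 3 arrays of slide 4 exceeded the 2 of slide 3 by a median of 0.23 (33 of 34 above 0), beside 0.26 over all genes. With slide as a fixed block, limma called 29 of 80 members lower in ELF than in E1, beside 16.9% of all genes lower, and 4 of the 29 were never saturated, Rpl28 and Rps19 among them. ELF versus control has no value within a slide.

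Among small subunit genes Rps6, whose protein is the classic target of S6 kinase, read nearly the same in all groups. Its scaled log2 signal was 4.54, 4.87, 4.67, 4.61 and 4.52 in ELF, 4.69, 4.82, 4.77, 4.48 and 4.53 in E1 and 4.64, 4.57, 4.49, 4.52 and 4.64 in control. The 3 groups overlapped. The difference was 0.08 in E1 versus control (SE 0.09, adjusted p = 0.747), 0.07 in ELF versus control (SE 0.09, adjusted p = 0.665) and −0.02 in ELF versus E1 (SE 0.09, adjusted p = 0.973).

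Rpsa, which is also known as the laminin receptor, read 2.48, 2.76, 2.43, 2.47 and 2.62 in ELF, 2.47, 2.67, 2.75, 2.74 and 2.32 in E1 and 2.05, 2.08, 2.35, 2.29 and 2.70 in control. The highest control value, 2.70, came from the control array on slide 2, and the 4 controls of slide 1 lay below 4 of 5 E1 arrays. The difference was 0.30 in E1 versus control (SE 0.13, adjusted p = 0.342) and 0.26 in ELF versus control (SE 0.13, adjusted p = 0.245). On slide 2 alone the E1 arrays lay 0.07 below that control array, a difference of −0.07.

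Rps10, a protein near the messenger entry side of the small subunit, was also lowest on average in control. It read 3.23, 4.06, 3.35, 3.50 and 3.33 in ELF, 3.51, 3.37, 3.50, 3.41 and 3.44 in E1 and 3.13, 3.04, 3.06, 3.20 and 3.37 in control. The control array on slide 2 was again the highest control, level with the lowest E1 array, and ELF 2 was the highest of all. The difference was 0.29 in E1 versus control (SE 0.13, adjusted p = 0.376) and 0.34 in ELF versus control (SE 0.13, adjusted p = 0.155), and 0.09 on slide 2 alone.

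Rps15a, a core protein of the small subunit, was the least variable of the genes shown. It read 4.37, 4.28, 4.28, 4.29 and 4.25 in ELF (4.30 ± 0.05), 4.25, 4.23, 4.20, 4.20 and 4.17 in E1 (4.21 ± 0.03) and 4.05, 4.18, 4.10, 4.08 and 4.20 in control (4.12 ± 0.06). All ELF values lay above all control values, and the E1 values overlapped both groups. The difference of 0.18 in ELF versus control (SE 0.06, 95% confidence interval 0.05 to 0.30) had the lowest adjusted p of the 80 members, 0.113, and missed the threshold.

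Only 3 members had ELF values that did not overlap control values, Rps15a, Rpl36 and Rpl7l1, all higher in ELF, beside 2.53% of all genes higher without overlap. Rpl36, a small protein of the large subunit, read 4.10, 4.43, 4.07, 4.09 and 4.08 in ELF, 4.12, 4.04, 4.20, 4.16 and 4.27 in E1 and 3.89, 3.91, 3.85, 3.98 and 4.04 in control. Apart from ELF 2 the ELF values lay between 4.07 and 4.10, above each control value and within the range of E1. The difference was 0.22 in ELF versus control (SE 0.08, adjusted p = 0.145), 0.22 in E1 versus control (SE 0.08, adjusted p = 0.271) and 0.00 in ELF versus E1.

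In E1 versus control the values of 1 member did not overlap, Rpl13a, beside 2.11% of all genes higher without overlap. Rpl13a is part of the large subunit and is known in human cells as a translational repressor released from the ribosome by interferon. It read 4.61, 4.97, 4.58, 4.43 and 4.57 in ELF, 4.70, 4.69, 4.82, 4.70 and 4.89 in E1 and 4.63, 4.59, 4.53, 4.65 and 4.62 in control. Its probe was saturated on 2 of the 5 ELF arrays and on none of the others. The difference was 0.16 in E1 versus control (SE 0.09, adjusted p = 0.509), and no member had ELF and E1 values that did not overlap, beside 1.1% of all genes higher and 0.956% lower in ELF.

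The Rplp0 probe read 1.97, 2.16, 1.92, 1.81 and 1.92 in ELF, 1.97, 1.90, 2.01, 2.05 and 1.95 in E1 and 1.69, 1.70, 1.69, 1.77 and 1.96 in control. The 4 controls of slide 1 lay below every ELF and E1 array, and the control array on slide 2, at 1.96, lay among them. The difference was 0.21 in E1 versus control (SE 0.08), with the lowest adjusted p of that comparison, 0.266, and 0.20 in ELF versus control (SE 0.08, adjusted p = 0.171). On slide 2 alone the difference was 0.00.

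**Figure D3:**
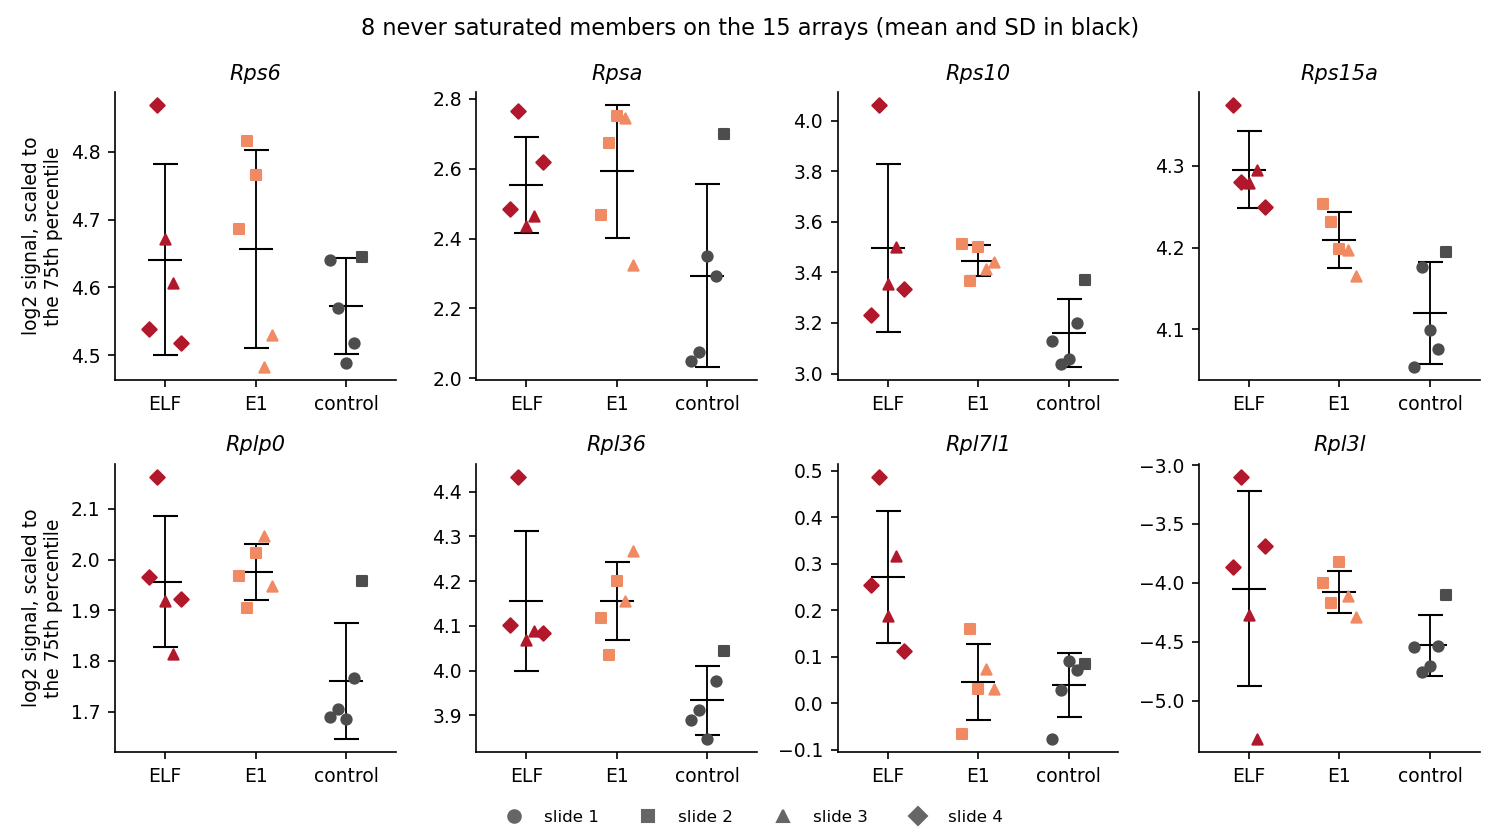
Scaled log2 signal of 8 never saturated members in ELF, E1 and control; each point is an array, its shape gives the slide, and the black bars give mean and SD (n = 5). The control array on slide 2 (square) is the highest of the controls in all panels but that of Rpl7l1, and in that of Rps6 it is level with another to 2 decimals, and array ELF 2 is the highest ELF value in all panels but that of Rps15a.

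Paralogues can replace a ribosomal protein in particular tissues, and 4 were measured. Rpl7l1, which in human cells works in ribosome assembly, read 0.25, 0.49, 0.19, 0.32 and 0.11 in ELF, −0.07, 0.16, 0.03, 0.07 and 0.03 in E1 and −0.08, 0.03, 0.09, 0.07 and 0.08 in control. E1 and control overlapped throughout, and only the lowest ELF array, at 0.11, lay within the range of E1. The difference was 0.23 in ELF versus control (SE 0.08, adjusted p = 0.115), 0.23 in ELF versus E1 (SE 0.08, adjusted p = 0.422) and 0.01 in E1 versus control. Under quantile normalization the ELF versus control difference was 0.24 (adjusted p = 0.0805), and on slide 3 alone the ELF versus E1 difference was 0.20.

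Rpl3l, a form of Rpl3 found in heart and skeletal muscle, was the dimmest member and read −3.86, −3.10, −4.27, −5.32 and −3.69 in ELF, −4.00, −4.17, −3.82, −4.11 and −4.29 in E1 and −4.55, −4.76, −4.70, −4.54 and −4.10 in control. ELF 4 fell below every other array. The difference was 0.48 in ELF versus control (SE 0.30, adjusted p = 0.352) and 0.45 in E1 versus control (SE 0.30, adjusted p = 0.565). Without ELF 4 the ELF versus control difference was 0.80 and passed the threshold (adjusted p = 0.0214), as did Rpl35 with 0.41 (adjusted p = 0.0442), beside 17% of all genes called higher. Leaving out that array also brought the calls over all genes to 5164, or 19.8%, against 562 with it.

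Rps27l, a paralogue of Rps27 that responds to p53, read 2.30 ± 0.31 in ELF, 2.16 ± 0.05 in E1 and 2.17 ± 0.12 in control, with adjusted p-values from 0.565 to 0.983. Its parent Rps27 was saturated on all arrays. Rpl22, which also serves in lymphocyte development in mice, read 3.26 ± 0.38 in ELF, 3.08 ± 0.07 in E1 and 2.97 ± 0.08 in control. Its ELF versus control difference of 0.30 (SE 0.14, adjusted p = 0.232) included ELF 2 at 3.89.

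The paralogue Rpl22l1 gave different answers from its 2 probes. The chosen probe (chr3:28622984-28623043, mm7) read 4.20 ± 0.12 in ELF, 4.30 ± 0.14 in E1 and 4.15 ± 0.15 in control, and the difference was 0.15 in E1 versus control (SE 0.09, adjusted p = 0.538). The dimmer probe (chr3:28621328-28621387) read −3.90, −3.49, −3.51, −3.93 and −3.67 in ELF, −3.47, −3.53, −3.09, −3.29 and −3.09 in E1 and −4.96, −4.90, −4.90, −4.76 and −3.32 in control. The 4 controls of slide 1 lay far below all other arrays, and the control array on slide 2 lay among the E1 arrays. With the mean over both probes Rpl22l1 was called higher in E1 than in control (0.71, adjusted p = 0.0491, beside 0.0996% of all genes higher), and with the dimmer probe alone under quantile normalization as well (1.13, adjusted p = 0.0388, beside 1.47%). Within slide 2 that probe spanned −3.53 to −3.09 over the 3 E1 arrays, with the control array at −3.32 between them.

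On array E1 5 the chosen probes of the large subunit genes Rpl24 and Rpl21 stood far from the other E1 arrays. Rpl24, which bridges the subunits, read 2.87, 3.37, 2.72, 2.89 and 2.64 in ELF, 2.70, 2.50, 2.62, 2.63 and 0.55 in E1 and 2.62, 2.73, 2.44, 2.60 and 2.44 in control. Its second probe read 2.47 on the same array, E1 5, where the chosen probe read 0.55. The chosen probe gave −0.37 in E1 versus control (SE 0.33, adjusted p = 0.689) and 0.70 in ELF versus E1 (SE 0.33, adjusted p = 0.518), and the second probe gave 0.05 and 0.01. Without E1 5 the chosen probe gave 0.05 in E1 versus control and 0.29 in ELF versus E1. For Rpl21 the chosen probe read 3.14 on E1 5 and between 1.21 and 1.80 on the other E1 arrays, while its second probe read −1.07 on E1 5 within an E1 range of −1.18 to −1.05.

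Of 18 members with at least 2 never saturated probes, all probes of the gene had the same sign in 12 in E1 versus control, in 12 in ELF versus control and in 10 in ELF versus E1. The array also carried 47 loci described only as similar to a cytosolic ribosomal protein, a set chosen after their values were seen. The median difference of its 34 never saturated loci was 0.18 in E1 versus control, 0.24 in ELF versus control and 0.04 in ELF versus E1. Over all genes these medians were 0.04, 0.10 and 0.05. In ELF versus control 1 locus of the 47 was called, beside 2.15% of all genes, and none was called in the other comparisons. Such loci may be copies that share sequence with the members, and shared hybridization was not tested.

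Related genes outside the cytosolic ribosome were set beside the members. Of 75 mitochondrial ribosomal protein genes, whose products form a separate ribosome and whose probes were saturated in only 1 case, 0 were called in any of the 3 comparisons with the 75th percentile scaling and no block. Their median difference was 0.10 in E1 versus control (59 of 75 above 0), 0.17 in ELF versus control (66 of 75 above 0) and 0.09 in ELF versus E1 (55 of 75 above 0). At an unadjusted p under 0.05 there were 10, 26 and 7 of them, beside the 13.1%, 23% and 9.64% of all genes. Mrpl12, which also binds the mitochondrial RNA polymerase, averaged 0.37 higher in ELF than in control (adjusted p = 0.0532), and Mrpl4 0.33 higher (adjusted p = 0.0511). Under quantile normalization both were called higher in ELF than in control, by 0.32 and 0.33, beside the 6.51% of all genes.

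Other TOP messengers outside the ribosome gave no call among 19. Their medians were 0.01 in E1 versus control, 0.05 in ELF versus control and 0.01 in ELF versus E1. Over all genes these were 0.04, 0.10 and 0.05. Only 12 of the 19 were never saturated, and over these the medians were −0.004, 0.11 and 0.11. Above 0 were 6, 9 and 9 of the 12. At an unadjusted p under 0.05 there were 3, 6 and 0 of the 19, beside the 13.1%, 23% and 9.64% of all genes. Eef2, the translocase that Eef2k phosphorylates in active neurons, read 3.24 ± 0.35 in ELF, 3.24 ± 0.26 in E1 and 3.07 ± 0.12 in control. Pabpc1, the poly(A)-binding protein, read 4.12 ± 0.39 in ELF, 4.36 ± 0.10 in E1 and 4.52 ± 0.11 in control, and ELF versus control gave −0.40 (adjusted p = 0.143). The list of translation initiation and elongation factors was taken by name (Eif or Eef with a number). It thus also holds genes that are not such factors, among them the kinase Eef2k. Among its 59 genes 0 were called, with 12, 17 and 4 at an unadjusted p under 0.05, beside the same shares of all genes. In ELF versus control, quantile normalization called 4 of the 59 (Eif1a and Eif3s3 higher, Eif4e3 and Eif4g3 lower), and limma on the authors' deposited values called 3 (Eif4e3, Eif2ak4 and Eif4g3, lower). Their medians were 0.07 in E1 versus control, 0.08 in ELF versus control and −0.02 in ELF versus E1.

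**Figure D4:**
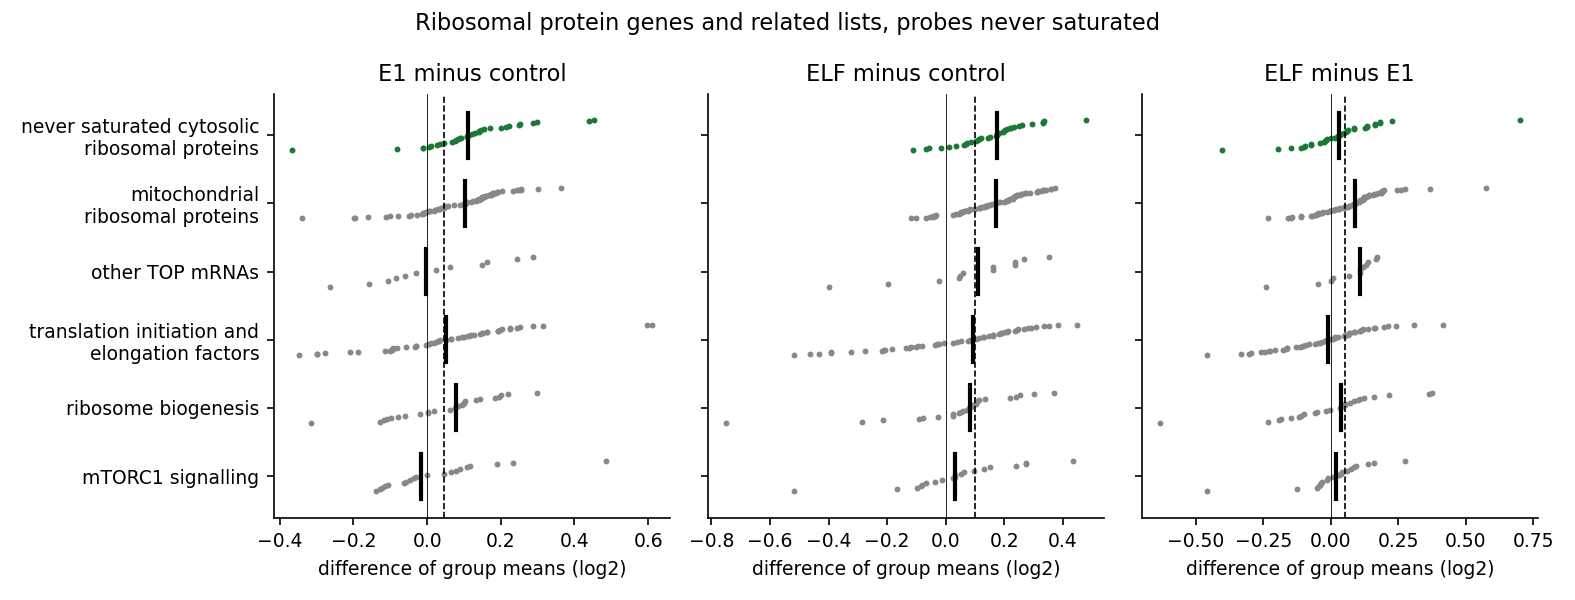
Differences of group means in log2 units for never saturated genes of 6 lists, 1 point per gene in order of size, with the list's median as a black bar and the median of all genes as a dashed line. The medians of the cytosolic and the mitochondrial ribosomal protein genes lie close together in both comparisons with control, at 0.11 and 0.10 in E1 versus control and at 0.17 in ELF versus control.

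In ELF versus control, where 2.15% of all genes were called, 1 of 26 ribosome biogenesis genes was called, Ltv1, which in yeast takes part in export of the small subunit. It read −2.52 ± 0.06 in ELF, −2.33 ± 0.05 in E1 and −2.24 ± 0.07 in control, and fell by 0.29 in ELF versus control (SE 0.06, adjusted p = 0.0412). Of 21 genes of mTORC1 signalling 1 was called in the same comparison, Ddit4, also named Redd1, an inhibitor of mTORC1 induced by glucocorticoids and stress. It read 4.21 ± 0.17 in ELF, 4.26 ± 0.05 in E1 and 3.78 ± 0.15 in control, and rose by 0.43 in ELF versus control (SE 0.09, adjusted p = 0.0402), while its difference of 0.49 in E1 versus control had an adjusted p of 0.0513. Under quantile normalization and on the authors' deposited values Ddit4 was called in E1 versus control too (0.45 in both, adjusted p = 0.0298 and 0.0397). The kinase itself (Frap1 on the array, now Mtor), its substrate Rps6kb1 and the TOP repressor Larp1 had adjusted p-values of at least 0.395 in each comparison. With replicate number as a block over the E1 and control arrays alone, Ddit4 was called in E1 versus control as well. So were 2 mitochondrial ribosomal protein genes (Mrpl10, 0.26, and Mrps28, 0.30), beside the 12.3% of all genes. In the same fit 4 genes of the list named Eif or Eef were called (Eef2k and Eif2b3 higher, Eif2c3 and Eif4e3 lower). The calls of Ltv1 and Ddit4 in ELF versus control were lost with slide as a fixed block, with replicate number as a block over all 15 arrays (lowest adjusted p of each list 0.0751 and 0.0594) or over the 2 groups alone, and with slide as a random block, under which no gene of the array was called in any comparison.

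Markers of choroid plexus, endothelial cells and meninges moved with the groups. Those of oligodendrocytes, astrocytes, microglia and blood had summed levels that overlapped between all 3 groups. None of those was called in any comparison of the reported fit without a block. The summed level of 5 meningeal markers on the scaled linear scale was 14.4 to 19.9 in ELF, 17.8 to 25.2 in E1 and 21.7 to 32.7 in control. Of these, 1 was called lower in ELF than in control (Igf2, −0.89), beside 0.662% of all genes. Igf2 was also called lower under quantile normalization (−0.96) and on the authors' deposited values (−0.98). It was no longer called once slide or replicate number entered as a block. Against control the median difference of the 5 markers was −0.31 in E1 and −0.48 in ELF. Blocking on slide, which leaves 1 control array beside E1, gave 0.04 and −0.26. The summed level of 8 choroid plexus markers on the scaled linear scale was 2.68 to 33.8 in ELF, 31.0 to 52.1 in E1 and 39.2 to 60.7 in control, and all 8 had lower means in ELF than in control, with 0 of 8 called and 6 of 8 at an unadjusted p under 0.05, beside 2.15% and 23% of all genes. Quantile normalization called 2 of the 8 lower in ELF than in control (Prlr and Otx2), and limma on the authors' deposited values called 3 (these and Sostdc1). The summed level of 7 endothelial markers was 4.25 to 5.80 in ELF, 4.28 to 6.56 in E1 and 7.49 to 14.1 in control, so both trained groups lay below control without overlap. Against control all 7 had lower means in E1 and 6 of 7 in ELF. Called lower were 2 in E1 and 3 in ELF, Kdr and Cldn5 in both, beside 0.0536% and 0.662% of all genes. The count called in ELF was 5 under quantile normalization and 6 on the authors' deposited values, beside 2.46% and 3.09%. With slide as a fixed block these calls were lost, and the median differences were −0.31 in E1 and −0.55 in ELF. That fit rests on 1 control array of slide 2. With replicate number as a block the count in E1 was 0 over all 15 arrays and 3 over the E1 and control arrays alone. The part of these cells in the values of the ribosomal protein genes was not tested.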

How the data were processed

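Hippocampal RNA of 15 mice was hybridized to 15 single-colour (Cy3) arrays. Per the file headers, Agilent Feature Extraction 9.5.3.1 gave for each of 45018 spots a processed intensity, background-subtracted and detrended within the array, a mean intensity and a local background intensity. The flags for saturation, signal well above background and outliers are other values of 0 or 1, per the file headers. The table deposited by the authors holds log2 values. Their normalization is not stated in the labels or headers, and the submitters' processing notes name Feature Extraction and limma. Build mm7 of the probe coordinates is per the file headers.

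Outlier-flagged and control spots were left out, log2 processed intensities were set relative to each array's 75th percentile, and spots were averaged to 41174 probes. Of these, 38457 were well above background on at least 5 arrays, and the brightest probe of each name gave 26117 genes. limma 3.58.1 in R 4.3.3 (lmFit, eBayes, two-sided) was fitted to all 15 arrays without a covariate, after a test on simulated data. Fixed scanner saturation near 65324 to 65335 units and the number of arrays limit the precision. Symbols matched the RefSeq table by accession for 74 of 80 members, with 1 renamed (Rps3a, now Rps3a1).

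The members, lists and tests were chosen with earlier results of these data known. Genes named in the text were those called or without overlap between groups, the 3 brightest and the 3 dimmest members, a list of well known members and paralogues, and those with a value far from its group. Rps10, Rpl21, Rpl35, the related genes outside the members and the further saturated members were picked after their values were seen. Single results of some members are not reported here. Alternatives were other scalings (quantile, median), normexp background correction, the authors' values, other filters and probe rules, slide and replicate number as blocks, only the groups compared, and each array left out. Deviations of same-numbered E1 and control arrays correlated across genes (0.14 to 0.30 for the 5 numbers). For E1 arrays 2 and 3, a control array of another number correlated more (0.27 and 0.24, against 0.19 and 0.14). The numbers thus do not clearly pair these arrays, and no label states a pairing. Numbers of ELF did not pair with control (−0.43 to 0.31) or with E1 (−0.40 to 0.17). Replicates are biological per the labels.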

Additional observations from a re-analysis of the deposited data

Results flagged for a closer look

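Of 240 groups of 5 values of the 80 members, 13 held a value far from the other 4 of its group, where chance alone flags about 1 in 20. Array E1 5, the array with the lowest 75th percentile, held 5 of them. On it Rpl24 read 0.55 beside 2.50 to 2.70 on the other E1 arrays, and Rps9 read 3.12 beside 2.90 to 2.95. Rpl11 (5.73 beside 4.63 to 4.94), Rpl37a (5.66 beside 4.69 to 4.92) and Rpl38 (5.77 beside 4.73 to 5.03) also stood out on it, and their probes were saturated on 14, 15 and 15 arrays. On array ELF 2, Rpl15 read 4.18 beside 3.54 to 3.65, Rpl36 read 4.43 beside 4.07 to 4.10 and Rps15 read 3.02 beside 2.12 to 2.35. On the control array of slide 2, the chosen probe of Rpl22l1 read 3.89 beside 4.18 to 4.23. Among the other E1 arrays Rpl18 read 2.86 on E1 2 beside 3.08 to 3.14 and Rpl30 read 4.49 on E1 4 beside 4.59 to 4.63. The median of the never saturated members was −0.041 on E1 2, beside 0.04 to 0.06 on the other E1 arrays.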

How the results depend on the processing

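The count of 0 called members held in each comparison under quantile normalization, normexp, both other filters, saturated probes left out and fits of only the groups compared. Slide as a random block also gave 0, but it called no gene of the array in any comparison. Normexp likewise called no gene of the array in ELF versus E1. The 0 for members carries no information in those fits. In E1 versus control, 1 member (Rpl22l1) was called with the mean over all probes and 1 (Rpl22l1) under quantile normalization with saturated probes left out. In ELF versus control, 2 members (Rps13 and Rpl7a, lower) were called with median scaling and 4 (Rps13, Rps3, Rpl7a and Rps2, lower) with the authors' deposited values. All 4 were saturated on every ELF array. Leaving out 1 array at a time gave 0 to 2 calls in ELF versus control, the 2 without ELF 4, and 0 in the other comparisons. In ELF versus E1, slide as a fixed block called 29 members, all lower, of which 25 had a saturated probe and 4 did not, Rpl28 and Rps19 among them. That fit rests on 2 ELF and 2 E1 arrays of slide 3 and called 16.9% of all genes lower.

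With the replicate block 0 members were called in each comparison, with all 15 arrays or with the groups compared alone, and it changed no other call of a member. Over all 15 arrays it called 0.831% of all genes in ELF versus control. It called no gene of the array in ELF versus E1 in either fit, nor in ELF versus control over those groups alone. The 0 for members carries no information there. The median over members in ELF versus control was −0.06 as reported, 0.16 with saturated probes left out (55 members) and 0.11 with quantile normalization besides. With slide as a fixed block it was −0.49 (−0.12 over never saturated members), beside −0.22 over all genes. ELF and control share no slide, so that fit joins them only through E1 arrays, with 1 control array on slide 2. In ELF versus E1 the median over members was −0.16 as reported, 0.027 with saturated probes left out and 0.0035 with quantile normalization besides. With slide as a fixed block it was −0.47 (−0.13 over never saturated members), beside −0.18 over all genes. The combined settings, the median over never saturated members and the values within slides were chosen after seeing the data. Saturation limits 46 members, and the cause of the shifts with slide was not tested.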
